A study of Mus musculus with 6 samples.

Results

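The transcripts described here encode collagen IV, laminins, nidogens and perlecan, the main structural proteins of the basement membrane. The 10 genes were taken by symbol from the 24061 gene symbols counted. They were *Col4a1*, *Col4a2*, *Lama2*, *Lama4*, *Lama5*, *Lamb1*, *Lamc1*, *Nid1*, *Nid2* and *Hspg2*, and all 10 passed the filter on low counts that left 13348 genes for testing. Bulk RNA-seq had been run on macrophages sorted from the inguinal (#4) mammary glands of FVB/N mice as CD45+CD11b+F4/80+Lyve-1+ or CD45+CD11b+F4/80+Lyve-1- cells. Each population had 3 libraries, and the cells of 4 mice were combined in each. The mice were nulliparous females, aged 6 weeks for replicate 1 and 10 weeks for replicates 2 and 3 of either population. Lymph nodes had been removed and the glands digested with collagenase and DNase I before sorting. The comparison asks whether the populations differ in transcripts of this matrix.

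The basement membrane is a thin sheet of matrix under epithelia and endothelia and around adipocytes, muscle and nerve. Laminin trimers of an alpha, a beta and a gamma chain polymerise at the cell surface, collagen IV trimers form a covalent network beside them, and nidogens and the heparan sulfate proteoglycan perlecan (*Hspg2*) link the networks. In the mammary gland this sheet surrounds the ducts, the vessels and each fat cell. Fibroblasts, endothelial, mural, epithelial and fat cells are its well-known sources, and macrophages are better known for binding and remodelling it.

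*Col4a1* and *Col4a2* lie head to head on chromosome 8 of GRCm38 (mm10), at 11198423 to 11312826 on the minus strand and 11312805 to 11449287 on the plus strand. Their annotated first exons overlap by 22 bases. That stretch is shown because it joins the start sites of the collagen IV pair, as read on each strand at chr8:11312801-11312830, with the overlap in capitals:
Col4a1: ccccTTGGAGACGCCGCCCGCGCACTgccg
Col4a2: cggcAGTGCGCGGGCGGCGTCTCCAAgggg
The overlap holds the GC box GGGCGG. Windows of 300 bases around the start site were found in RefSeq (GRCm38.p6) for 7 of the 10 genes, not for *Lama4*, *Lamc1* and *Nid2*. On either strand, GGGCGG occurred in 7 of these 7 windows and in 35.9% of all 27025 windows of this length. CCAAT occurred in 4 of the 7 and in 37.9% of all windows, and TATAAA in 0 of the 7 and in 14.2%. The windows of the 7 genes were between 50.3% and 74% GC, with a median of 70.3% against 52.7% for all windows, and those of *Col4a1* and *Col4a2* share 78 bases. Upstream stretches of a laminin and of both kinds of linker are shown for comparison, at chr12:31265043-31265233, chr13:13437352-13437550 and chr4:137468553-137468768, each on the plus strand and ending before the first annotated base of the gene, with GGGCGG and CCAAT on either strand in capitals:
Lamb1: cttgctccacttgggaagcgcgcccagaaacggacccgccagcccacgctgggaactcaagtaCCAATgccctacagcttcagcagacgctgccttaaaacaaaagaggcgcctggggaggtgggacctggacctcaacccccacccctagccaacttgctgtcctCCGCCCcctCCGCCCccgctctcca
Nid1: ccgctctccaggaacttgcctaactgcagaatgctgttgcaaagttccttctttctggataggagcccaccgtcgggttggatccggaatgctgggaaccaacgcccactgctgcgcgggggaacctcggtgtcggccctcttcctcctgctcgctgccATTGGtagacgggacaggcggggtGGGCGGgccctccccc
Hspg2: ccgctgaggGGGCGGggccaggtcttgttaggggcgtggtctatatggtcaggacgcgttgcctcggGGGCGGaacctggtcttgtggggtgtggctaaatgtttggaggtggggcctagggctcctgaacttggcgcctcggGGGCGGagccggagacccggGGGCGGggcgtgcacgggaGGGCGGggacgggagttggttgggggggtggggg
The *Hspg2* stretch held 5 GC boxes and no CCAAT, whereas those of *Lamb1* and *Nid1* held 2 and 1 GC boxes and 1 CCAAT each. These matches describe the letters in the windows and not sites in use.

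Library totals ran from 6478007 to 21406839 counts, and the 10 genes had between 55 and 3365 counts in every library. *Lyve1*, which was used to sort the cells, lay between 1.43 and 7.43 CPM (counts divided by TMM-adjusted library totals) in the Lyve-1- libraries and between 597 and 2352 CPM in the Lyve-1+ libraries. The other sort markers *Ptprc*, *Itgam* and *Adgre1* were at 201 CPM or more in all 6 libraries. A pair of libraries stood apart in ways that touch these genes. Lyve-1+ replicate 3 had the highest summed level of a fibroblast marker list (7037 CPM against 1011 to 2362 CPM in the other 5 libraries). Most of that sum came from the collagens *Col3a1*, *Col1a1* and *Col1a2*. Lyve-1- replicate 3 had the most olfactory receptor counts, 2.64 counts per kb of exon against 0.0342 to 1.17 in the other 5 libraries. At that density, exon length alone would give between 2.44% and 50.1% of the counts of the 10 genes in Lyve-1- replicate 3, with a median of 12.9%. In each of the other 5 libraries that share had a median of at most 0.998%. The fold changes of the 10 genes are therefore also given without Lyve-1+ replicate 3 in the text and without either library in the plot of fold changes.

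Of the 10 genes, 9 had a log2 fold change above 0 in the Lyve-1+ population, with a median of 0.94 against -0.011 over all genes tested, of which 49.4% were above 0. None of the 10 passed the limits taken from the study (adjusted p under 0.01 in edgeR, with a fold change between 1 and 10 in size, read here as log2), which 0.112% of all genes did, and none had an adjusted p under 0.05, which 0.629% did. The unadjusted p was under 0.05 for 5 of them, *Lamb1*, *Nid2*, *Lamc1*, *Col4a2* and *Col4a1*, as it was for 7.69% of all genes. DESeq2 called 0.954% of all genes and none of the 10, with adjusted p-values from 0.194 to 0.99. All Lyve-1+ libraries lay above all Lyve-1- libraries for 4 genes, *Nid2*, *Lamb1*, *Lamc1* and *Col4a2*, a separation in this direction that 7.82% of all genes had. With 1 library left out in turn, the count ran from 4 to 7, and it was 4 without either replicate 3. At a fixed scaling, leaving out a library can only keep or raise this count, so these counts do not test the separation. The 7 came without Lyve-1- replicate 2, when 12.2% of all genes were separated in this direction. The share over all genes was not read for the other omissions. The highest of the 6 libraries was Lyve-1+ replicate 3 for 8 of the 10, against 18.1% of all genes. Without that library, the median log2 fold change of the 10 was 0.31. Without Lyve-1- replicate 3 it was 0.78. In these sorted bulk samples, more cells of a type and more RNA per cell cannot be told apart.

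**Figure D1:**
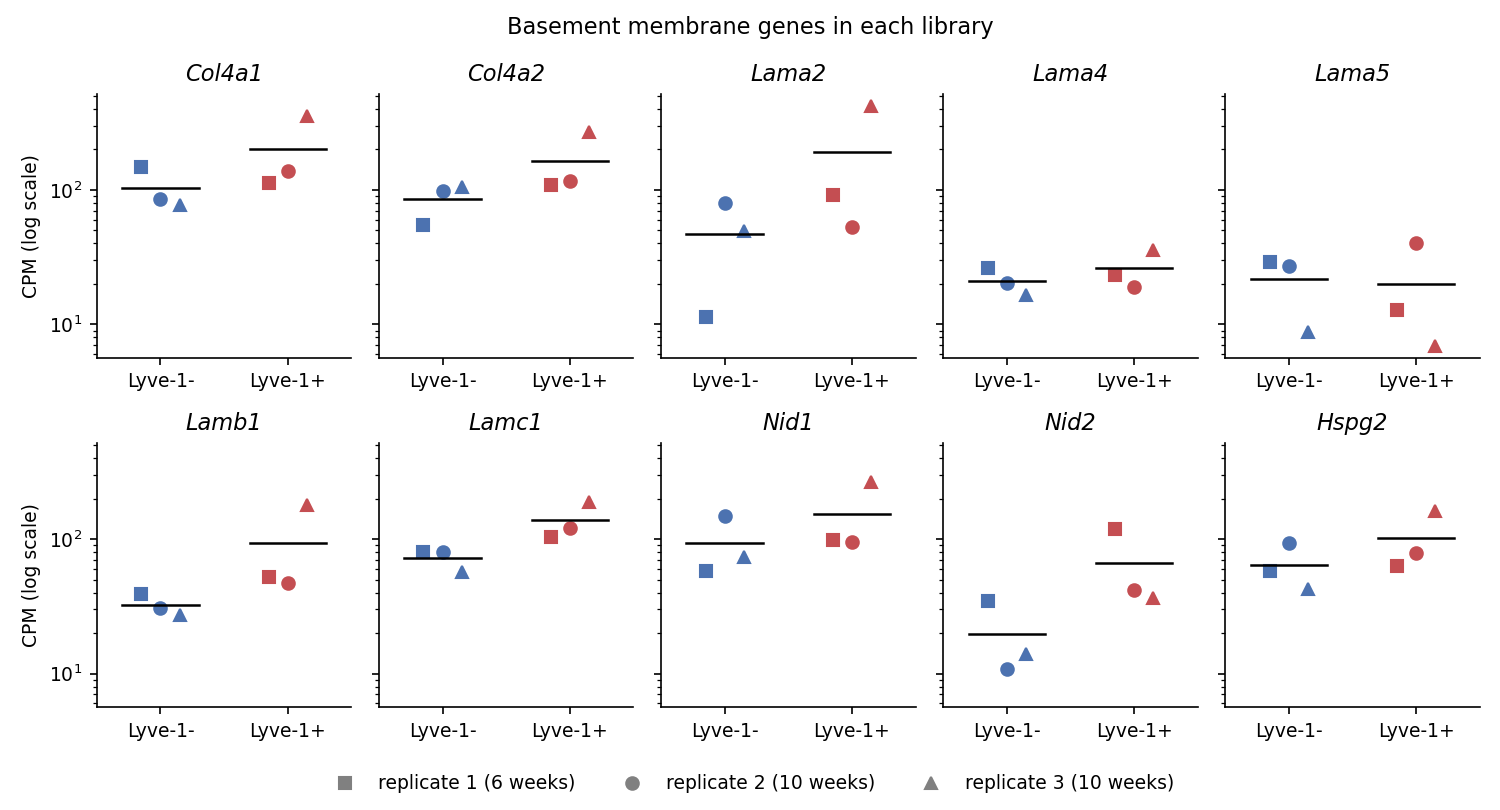
Level of each gene in CPM on a log axis, 1 panel per gene, with the Lyve-1- libraries in blue and the Lyve-1+ libraries in red. Squares are replicate 1 (6 weeks), circles and triangles replicates 2 and 3 (10 weeks), and bars are the means of 3 libraries. The red triangle, Lyve-1+ replicate 3, is the highest point for 8 of 10 genes, all but *Lama5* and *Nid2*.

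Collagen IV forms the covalent network of the sheet, and its most widespread trimer holds alpha 1 and alpha 2 chains, the products of *Col4a1* and *Col4a2*. *Col4a1* was at 149, 85.1 and 77.1 CPM in Lyve-1- replicates 1 to 3 and at 113, 138 and 354 CPM in Lyve-1+ replicates 1 to 3. The populations overlapped, because the 6-week Lyve-1- library was above the first 2 Lyve-1+ libraries. The means were 104 ± 39.4 CPM (SD, n = 3) and 202 ± 132 CPM (SD, n = 3), which gave a log2 fold change of 0.96 (standard error, SE, of 0.42, adjusted p = 0.602 by edgeR). *Col4a2* was at 54.7, 97.4 and 104 CPM in the Lyve-1- libraries and at 108, 116 and 268 CPM in the Lyve-1+ libraries. These values did not overlap, but the gap between the nearest libraries was small, and it closed when the counts were scaled by total library size or by DESeq2 size factors. The log2 fold change was 0.94 (SE 0.39, adjusted p = 0.537 by edgeR). For *Col4a1* and *Col4a2*, leaving out Lyve-1+ replicate 3 gave 0.25 and 0.37.

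As CPM per kb of exonic sequence, the ratio of *Col4a1* to *Col4a2* was 2.42, 0.775 and 0.656 in Lyve-1- replicates 1 to 3 and 0.927, 1.06 and 1.17 in Lyve-1+ replicates 1 to 3. The 6-week Lyve-1- library stood above the other 5, in which the chains were closer to each other per length. The means of 1.28 ± 0.983 and 1.05 ± 0.121 (SD, n = 3 each) differed by less than the spread. The 22 shared bases are 0.295% of the exonic length of *Col4a1* and 0.332% of that of *Col4a2*.

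Among the laminin chains, *Lamb1* and *Lamc1* encode the beta 1 and gamma 1 chains shared by most laminin trimers. *Lamb1* (chromosome 12, 31265234 to 31329644) was at 39, 31 and 27.3 CPM in the Lyve-1- libraries and at 52.6, 47.3 and 181 CPM in the Lyve-1+ libraries. The populations did not overlap, and most of the distance between the means (32.4 ± 5.99 against 93.6 ± 75.5 CPM, SD, n = 3) came from Lyve-1+ replicate 3. The log2 fold change was 1.53 (SE 0.5, adjusted p = 0.299 by edgeR), and 0.6 without that library. *Lamc1* (chromosome 1, 153218922 to 153332786) was at 79.7, 80 and 56.9 CPM in the Lyve-1- libraries and at 104, 120.2 and 189 CPM in the Lyve-1+ libraries. Again the populations did not overlap, with means of 72.2 ± 13.3 and 138 ± 45 CPM (SD, n = 3) and a log2 fold change of 0.93 (SE 0.33, adjusted p = 0.385 by edgeR). Leaving out Lyve-1+ replicate 3 gave 0.61. Its profile over the 6 libraries was also the nearest to the mean of the other 9 genes, with a root mean square difference of 0.12 on the log2 scale.

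*Lama2*, *Lama4* and *Lama5* encode the alpha chains, which give a laminin trimer its receptor binding. Alpha 2 is best known from muscle, nerve and mesenchyme, alpha 4 from endothelium and fat, and alpha 5 from epithelium and endothelium. *Lama2* (chromosome 10, 26980036 to 27619758) was at 11.3, 79.3 and 49.4 CPM in the Lyve-1- libraries and at 92.2, 53.1 and 424 CPM in the Lyve-1+ libraries. It thus spanned the widest range of the 10 genes, from the 6-week Lyve-1- library to Lyve-1+ replicate 3, and the populations overlapped. It had the largest log2 fold change of the 10 (2.02) and also the largest standard error (1.01, edgeR adjusted p = 0.808), and the value without Lyve-1+ replicate 3 was 0.61.

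*Lama4* (chromosome 10, 38965515 to 39110188) was at 26.2, 20.4 and 16.6 CPM in the Lyve-1- libraries and at 23.5, 19.1 and 35.8 CPM in the Lyve-1+ libraries. These overlapped, with a log2 fold change of 0.31 (SE 0.56, adjusted p = 1 by edgeR). *Lama5* (chromosome 2, 180176373 to 180225859) was at 29.3, 27.3 and 8.75 CPM in the Lyve-1- libraries and at 12.9, 40.2 and 6.93 CPM in the Lyve-1+ libraries. It was the only one of the 10 with a negative log2 fold change (-0.12, SE 0.74, adjusted p = 1 by edgeR), a sign that turned in 5 of 16 alternative fits. *Lama5* was lowest in Lyve-1+ replicate 3, the library in which 8 of the other genes were highest. Of its 60 counts in Lyve-1- replicate 3, the olfactory receptor density would give 50.1%.

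Per kb of exon, *Lama2* made up 12.8%, 54.3% and 58.5% of the 3 alpha chains in the Lyve-1- libraries and 64.7%, 38.9% and 87.9% in the Lyve-1+ libraries. *Lama5* made up 47.3%, 26.8% and 14.9% in the Lyve-1- libraries and 13%, 42.2% and 2.06% in the Lyve-1+ libraries. The 6-week Lyve-1- library and Lyve-1+ replicate 2 were therefore the libraries with the most *Lama5* among the alpha chains, and the populations overlapped for every chain. The ratio of *Lamb1* to *Lamc1* per kb lay between 0.323 and 0.423 in 5 libraries and was 0.798 in Lyve-1+ replicate 3.

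**Figure D2:**
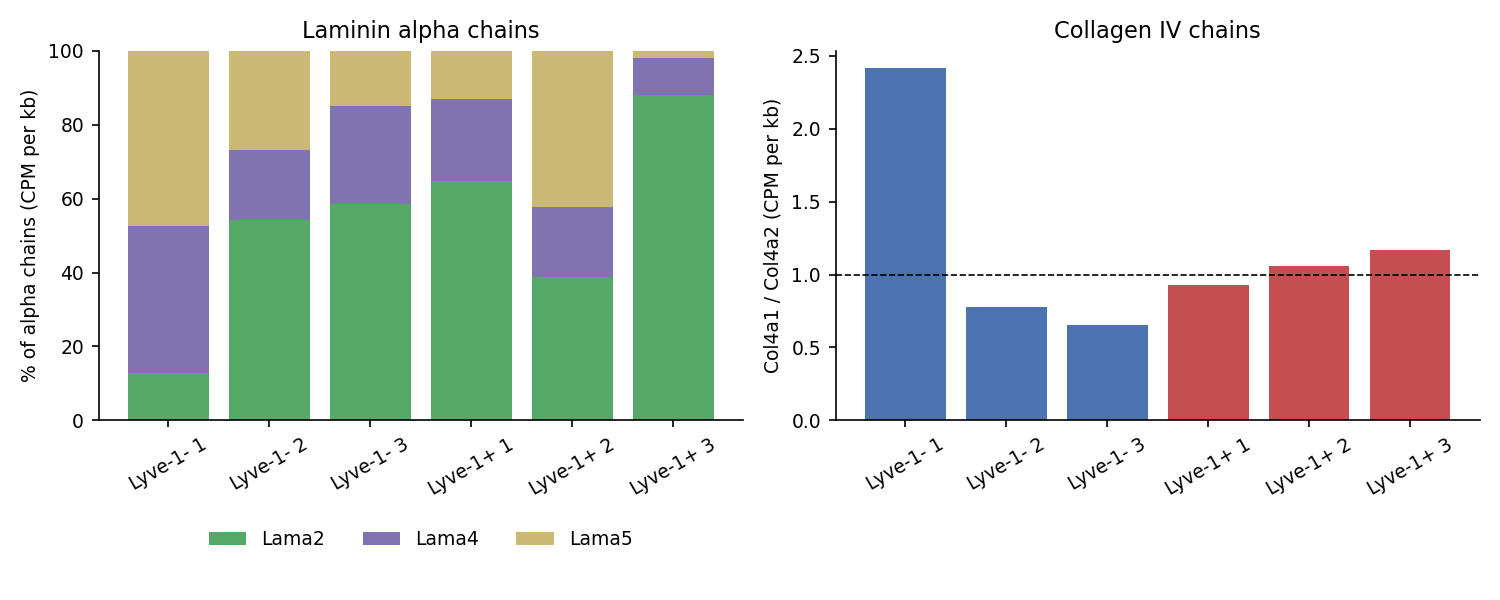
Left, share of each laminin alpha chain in the summed CPM per kb of *Lama2*, *Lama4* and *Lama5*, per library in %. Right, ratio of *Col4a1* to *Col4a2* in CPM per kb, with Lyve-1- libraries in blue, Lyve-1+ libraries in red and a dashed line at 1. *Lama2* reached 87.9% in Lyve-1+ replicate 3, and the collagen IV ratio was 2.42 in the 6-week Lyve-1- library against 0.656 to 1.17 in the others.

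Nidogens bind laminin gamma 1 and collagen IV, and perlecan carries heparan sulfate chains that hold growth factors. *Nid2* (chromosome 14, 19751265 to 19811787) was at 34.8, 10.7 and 14 CPM in the Lyve-1- libraries and at 119.6, 42.2 and 36.7 CPM in the Lyve-1+ libraries. The populations did not overlap, and the 6-week library was the highest in each population. The means were 19.8 ± 13 and 66.1 ± 46.4 CPM (SD, n = 3), with a log2 fold change of 1.73 (SE 0.58, adjusted p = 0.329 by edgeR). *Nid2* was the only gene of the 10 whose log2 fold change grew without Lyve-1+ replicate 3, apart from *Lama5*, whose sign turned. It was then 1.99 (edgeR adjusted p = 0.135). Without Lyve-1+ replicate 1 it was 1.01. Over 8.45% of its exonic length, *Nid2* overlaps *Rtraf* on the opposite strand, and the strand setting of the counting is not given in the sources used here.

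*Nid1* (chromosome 13, 13437551 to 13512269) was at 58.3, 148 and 74.2 CPM in the Lyve-1- libraries and at 98.7, 95.3 and 264 CPM in the Lyve-1+ libraries. The populations overlapped, with a log2 fold change of 0.71 (SE 0.45, adjusted p = 0.917 by edgeR), while leaving out Lyve-1+ replicate 3 gave 0.024. *Hspg2* (chromosome 4, 137468769 to 137570630) was at 57.6, 93.8 and 42.3 CPM in the Lyve-1- libraries and at 63.6, 79.3 and 163 CPM in the Lyve-1+ libraries. It overlapped in the same way, with a log2 fold change of 0.66 (SE 0.42, adjusted p = 0.909 by edgeR), and 0.12 without that library. The ratio of *Nid2* to *Nid1* per kb ran from 0.0975 to 1.63 and was highest in the 6-week library of each population, 0.8 in Lyve-1- and 1.63 in Lyve-1+ cells.

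**Figure D3:**
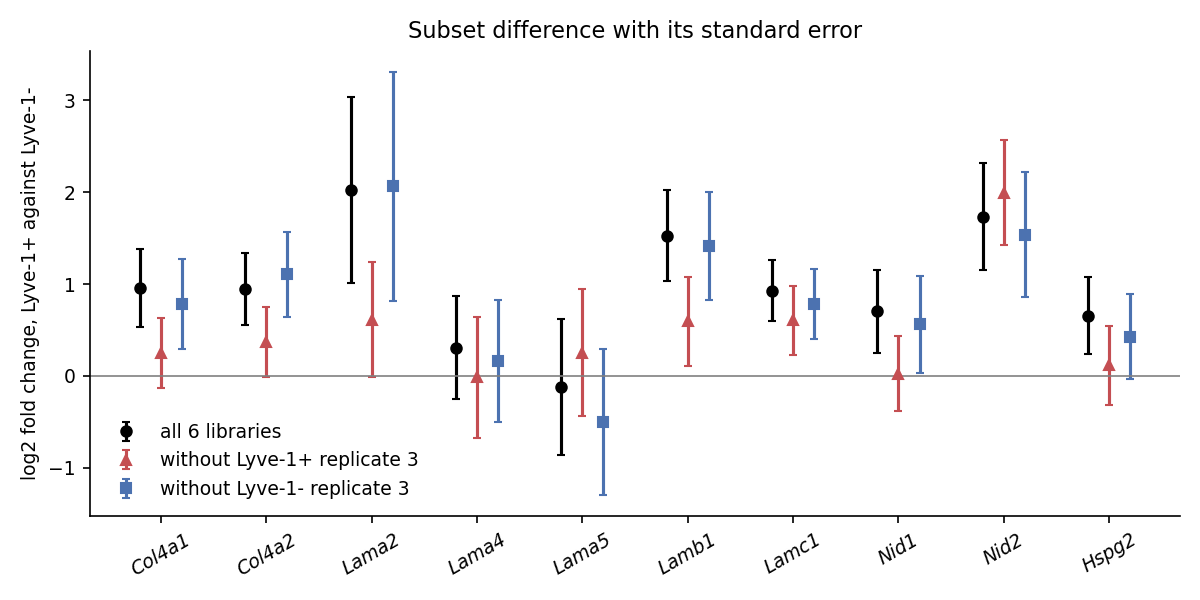
Log2 fold change of Lyve-1+ against Lyve-1- cells for each gene with its standard error from edgeR, with all 6 libraries (black), without Lyve-1+ replicate 3 (red) and without Lyve-1- replicate 3 (blue). Without Lyve-1+ replicate 3, the values of 8 genes moved toward or past 0, that of *Nid2* rose from 1.73 to 1.99 and that of *Lama5* went from -0.12 to 0.25.

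Ordered by the mean CPM per kb over all 6 libraries, *Col4a1* (20.5 ± 13.7, SD, n = 6), *Col4a2* (18.9 ± 11.1) and *Nid1* (17.7 ± 10.9) were the most abundant, followed by *Lamc1* (12.7 ± 5.63). *Nid2*, *Lama2*, *Lamb1* and *Hspg2* lay between 8.31 and 5.82, and *Lama4* (1.96 ± 0.567) and *Lama5* (1.84 ± 1.17) were the lowest. Neighbours in this order differed by less than their spread over libraries, except for the step from *Hspg2* (5.82 ± 3) to *Lama4*, which was larger than the standard deviation of either. The order was not the same in each population. Among the Lyve-1- means, *Nid1* (13.5) was above *Col4a2* (12.9), *Hspg2* (4.51) above *Nid2* (3.84), *Lamb1* (3.27) and *Lama2* (2.86), and *Lama5* (1.91) above *Lama4* (1.75), whereas the Lyve-1+ means followed the order over all libraries.

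The mean of their centred log2 CPM was -0.42, -0.18 and -0.69 in Lyve-1- replicates 1 to 3 and 0.15, 0.13 and 1.01 in Lyve-1+ replicates 1 to 3. Lyve-1+ replicate 3 was thus the highest library, and the lowest Lyve-1+ library lay above the highest Lyve-1- library. The distance between the population means was 0.86, against standard deviations of 0.25 within the Lyve-1- and 0.5 within the Lyve-1+ libraries (n = 3 each). *Lama5*, *Lama2* and *Nid2* departed most from the mean of the other genes, by root mean square differences of 1.36, 1.26 and 1.13. Of 9623 other genes with a mean log2 CPM of at least 2, those nearest to the mean profile over the 6 libraries were *Ostm1*, *Wrnip1*, *Ugp2*, *Smg9* and *2610008E11Rik*, with root mean square differences from 0.14 to 0.19.

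Markers of cells that lay down basement membrane were read in the same libraries. The 8 fibroblast markers summed to between 1011 and 1190.2 CPM in the Lyve-1- libraries and to 2362, 1771 and 7037 CPM in Lyve-1+ replicates 1 to 3. Their summed level put replicate 3 first among the Lyve-1+ libraries, as for most of the 10 genes. In that library the collagens *Col3a1*, *Col1a1* and *Col1a2* were at 3567, 1576 and 1120 CPM. Each marker was highest there except *Dpt* (26.7 CPM against 35.8 and 35.7 CPM in Lyve-1+ replicates 1 and 2) and *Pi16* (8.57 CPM against 17 and 26.4 CPM). Of the fibroblast markers 7 of 8 had a log2 fold change above 0, with a median of 1.77. None had an adjusted p under 0.05 in edgeR, 5 had an unadjusted p under 0.05, and in DESeq2 5 had an adjusted p under 0.05 and 1 was called, *Col1a2*. The most abundant, *Col3a1*, was at 526 to 674 CPM in Lyve-1- cells and 863 to 3567 CPM in Lyve-1+ cells. None of the 8 was at 0 in any library. Blood endothelial markers, led by *Pecam1*, summed to 77 to 178 CPM in the Lyve-1- and 87.7 to 257 CPM in the Lyve-1+ libraries, and mural markers, led by *Myh11*, to 156 to 339 and 182 to 264 CPM. Luminal epithelial markers, led by *Krt18*, summed to 39.8 to 248 and 41.3 to 78.1 CPM, and myoepithelial markers, led by *Oxtr*, to 0.977 to 54.5 and 6.68 to 9.98 CPM. Lymphatic endothelial markers, led by *Mmrn1*, were at 0, 0 and 54.8 CPM in the Lyve-1- libraries and at 13.8 to 16.4 CPM in the Lyve-1+ libraries, with *Ccl21a* at 0 in all 6. Adipocyte markers, led by *Car3*, summed to 15.9 to 21.1 and 17 to 39.6 CPM, and Schwann cell markers, led by *Sox10*, to 0 to 12.5 and 0 to 5.79 CPM. Lymphocyte markers, led by *Cd3g*, summed to 52.2 to 82.2 and 12.6 to 102 CPM, and neutrophil markers, led by *S100a9*, to 10.2 to 45.8 and 28.4 to 232 CPM. The highest adipocyte, lymphocyte and neutrophil sums were again in Lyve-1+ replicate 3. The part of these cells in the levels of the 10 genes was not tested.

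**Figure D4:**
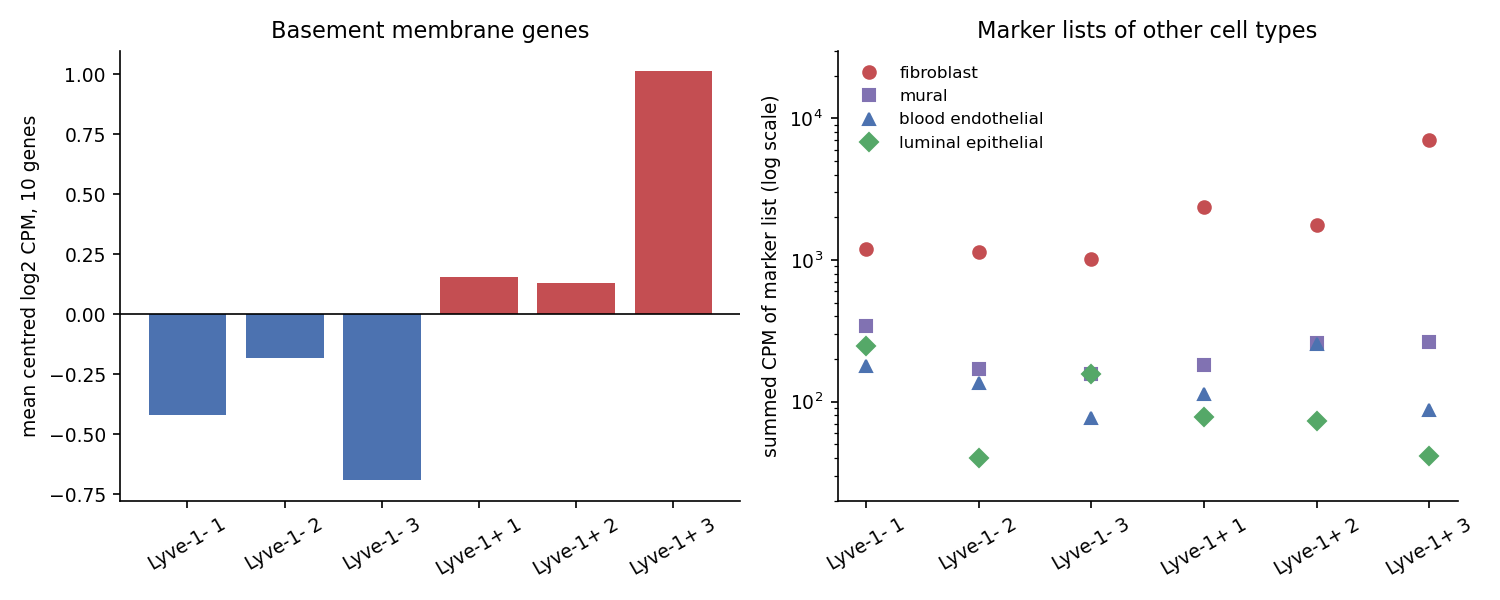
Left, mean centred log2 CPM of the 10 genes in each library. Right, summed CPM of 4 marker lists on a log axis in the same libraries. Both the genes and the fibroblast list (red circles, 7037 CPM) are highest in Lyve-1+ replicate 3, whereas the other lists drawn are not. The adipocyte, lymphocyte and neutrophil lists, which are not drawn, were also highest in that library.

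The wider pathway was read from 63 other genes for chains, further components, receptors, chain folding and turnover, of which 60 were tested. Of these, 39 had a log2 fold change above 0 and 21 below, with a median of 0.33, 0 were called by edgeR, 8 had an unadjusted p under 0.05 and 1 had an adjusted p under 0.05. DESeq2 called 2, *Ddr2* and *Timp2*. The gene past 0.05 in edgeR was *Timp2*, an inhibitor of matrix metalloproteinases, at 131, 220.1 and 95.2 CPM in the Lyve-1- libraries and at 996, 410.5 and 461 CPM in the Lyve-1+ libraries. The populations did not overlap (log2 fold change 2.06, SE 0.39, adjusted p = 0.0368 by edgeR). The adjusted p of *Timp2* was above 0.05 in the 10-week libraries (0.325, log2 fold change 1.44) and on leaving out replicate 1 (0.128) or replicate 3 (0.151) of the Lyve-1- population.

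The tissue-restricted chains were sparse. *Col4a3* and *Col4a4* did not pass the filter, and the other collagen IV chains *Col4a5* and *Col4a6* were at -0.19 and -1.1 on the log2 scale (adjusted p = 1 for each in edgeR), with 0 counts in at least 1 library. In Lyve-1- replicate 3, the olfactory receptor density would give 49.3% of the counts of *Col4a5* and 61.9% of those of *Col4a6*. In Lyve-1+ replicate 1 it would give 8.9% and 42.8%. The signs of both fold changes turned without Lyve-1- replicate 3. Of 5 other laminin chains read here, 5 were above 0 and none passed the test. The log2 fold changes ran from 0.41 for *Lama3*, an alpha chain of epithelial laminins, to 1.02 for *Lamc3*, the gamma 3 chain (adjusted p = 1 for each in edgeR), and the sign of *Lama3* turned without Lyve-1- replicate 2. Leaving out Lyve-1- replicate 3 gave 1.85 for *Lama3* and 3.23 for *Lamc3*.

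Of 19 further components tested, 9 were above 0 and 10 below. *Col15a1*, a basement membrane collagen of muscle and vessels, had the largest value (log2 fold change 1.92, edgeR adjusted p = 0.693). It was at 34.2 to 68.9 CPM in 5 libraries and at 399.7 CPM in Lyve-1+ replicate 3, without which the log2 fold change was 0.196. *Matn2*, a matrilin, had the lowest (-1.68, edgeR adjusted p = 1). Of 15 receptors, 9 were above 0. *Ddr2*, a collagen receptor kinase, was at 10.1, 6.13 and 15.6 CPM in the Lyve-1- libraries and at 45.3, 41.3 and 79.8 CPM in the Lyve-1+ libraries, without overlap (log2 fold change 2.39, edgeR adjusted p = 0.0743). DESeq2 gave *Ddr2* an adjusted p of 0.00338. *Itga1*, the alpha 1 chain of a collagen IV integrin, had the lowest value (-1.82, edgeR adjusted p = 1).

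Of 12 genes that fold, hydroxylate and export collagen chains, 11 had a log2 fold change above 0, with a median of 0.55, and none passed the test. The values ran from -0.11 for *Plod3*, a lysyl hydroxylase, to 1.8 for *P4ha2*, a prolyl hydroxylase subunit (adjusted p = 1 for each in edgeR). The sign of *Plod3* turned in 5 alternative fits, and *P4ha2* was at 3.24 without Lyve-1- replicate 3. Of the 7 proteases and inhibitors, 5 were above 0, from *Timp2* down to *Mmp12*, macrophage elastase (-1.13, edgeR adjusted p = 0.797).

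Age was read with the population as a second term. Of the 10 genes, 8 had a log2 fold change above 0 at 10 weeks against 6 weeks, with a median of 0.22 against 0.07 for all genes. None of the 10 was called, as in 0% of all genes, and none had an edgeR adjusted p under 0.05, which 0.0225% of all genes had. The unadjusted p in edgeR was under 0.05 for 2, *Nid2* and *Col4a2*, as it was for 444 of all 13348 genes tested. DESeq2 called none of the 10 and 0.0964% of all genes. *Nid2* had the smallest p, with a log2 fold change of -1.55 (SE 0.45, adjusted p = 0.852 by edgeR), and *Lama2* the largest change, 1.89 (SE 0.88, adjusted p = 1 by edgeR). Without Lyve-1+ replicate 3, a 10-week library, the age values of *Col4a1*, *Lamb1* and *Lamc1* fell below 0 (-0.4, -0.31 and -0.045). Those of *Col4a2*, *Hspg2*, *Lama2*, *Lama5* and *Nid1* stayed above 0, with *Lama2* at 0.97. Only 1 pool of each population was 6 weeks old, and age and these pools cannot be told apart. A difference of the population effect between ages was called by edgeR for 0% of all genes and by DESeq2 for 0.0377%, and by neither for any of the 10. Among the 10 it was largest in size for *Col4a1* (difference 1.99, standard error 0.76). For *Col4a1* the Lyve-1+ library was lower by 0.39 on the log2 scale at 6 weeks. It was higher by 0.7 and 2.2 between the 10-week libraries of the same number. Over all genes, the median of this difference was -0.3.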

How the data were processed

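Per the methods and the submitters' processing notes, the authors mapped paired 50-base reads to mm10 with HISAT2 2.0.2 and counted them per gene with featureCounts 1.5.0 (Subread). What the authors deposited is 1 table of raw counts per gene symbol, in whole numbers. The annotation and strand setting are not given in the sources used here. Libraries had been made with a stranded total RNA kit for low input. The methods describe a further 6-week library that was removed as an outlier and was not analysed here.

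Counts were filtered with filterByExpr, scaled by TMM and tested with edgeR 4.0.16 (quasi-likelihood, robust) in R 4.3.3, with a term for the population and p-values adjusted by Benjamini-Hochberg over all 13348 genes tested. DESeq2 1.42.0, the tool of the study, was an alternative. Calls needed an adjusted p under 0.01 with a log2 fold change between 1 and 10 in size. The study gives these limits for the fold change without naming its scale, and log2 is an interpretation. The labels do not say whether the pools were collected on separate days, so p-values measure the spread between these libraries. Totals of 6478007 to 21406839 counts let a gene at 0 have up to 3 counts, or 0.144 to 0.437 CPM, for counting error only.

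Positions and exonic lengths came from GENCODE M21 (GRCm38), which matched 22749 symbols directly and 921 through a RefSeq synonym. CPM per kb is CPM over the union of exons. Centred profiles used log2 CPM with a prior count of 2. Both count tests were tested on simulated data in which 200 genes had been changed. Recovery of these genes was required only at a spread between libraries set lower than in these data. The power at the spread of these data is thus not given. The 10 genes, the pathway lists (other chains, components, receptors, folding and export, proteases and inhibitors) and the marker lists were chosen with earlier results of these data known. Some genes of these lists are not reported here. All 10 genes are named. Of each pathway list the tested genes with the largest and smallest log2 fold change are named, of each marker list the most abundant, and the 5 genes with the nearest profile. *Col4a3*, *Col4a4*, *Col1a1*, *Col1a2*, *Dpt*, *Pi16*, *Ccl21a* and the sort markers were named after their values were seen. Alternatives were DESeq2, other scalings and filters, a replicate block, a term for age, the 10-week libraries by themselves, a length minimum of 300 bases, subtraction of the olfactory receptor density, and each library left out in turn.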

Additional observations from a re-analysis of the deposited data

How the results depend on the processing

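Over 16 alternative fits, 154 of 160 log2 fold changes of the 10 genes kept their direction, and none of the 10 was called for the population in any of them. An adjusted p under 0.05 was reached by *Lamb1* without a filter on low counts (0.0377) and by *Nid2* without Lyve-1- replicate 1 (0.0431). The sign of *Lama4* turned without Lyve-1+ replicate 3 (-0.015, range 0.48 down to -0.015 with 1 library left out). That of *Lama5* turned in the 10-week libraries (0.37) and in 4 of 6 fits with 1 library left out (range -1.16 to 0.25). Of the other genes named, *Col4a5* turned after subtraction of the olfactory receptor density (0.24) and ranged from -2.37 to 0.81 with 1 library left out. *Col4a6* turned with the replicate block (0.55) and ranged from -1.69 to 1.27. *Lama3* ranged from -0.165 to 1.85. *Plod3* turned with the block (0.054), with a term for age (0.057) and in the 10-week libraries (0.298), and ranged from -0.51 to 0.71. The causes were not tested.

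Over all genes, the 15 calls for the population became 151 with DESeq2, 188 without a filter on low counts, 32 with at least 10 counts in every library, 58 with a term for age, 84 at an adjusted p under 0.05 with no limit on the fold change, and between 1 and 81 with 1 library left out, at the omission of Lyve-1- replicate 3 and of Lyve-1+ replicate 2. With the replicate number as a block the calls were 140, and the adjusted p of *Nid2* was 0.063. The deviations of same-numbered libraries correlated at -0.0462, -0.00183 and -0.147. Deviations from means of 3 libraries cannot show whether same-numbered libraries came from the same mice, and the labels do not say. The main fit had no pairing, and the block was an alternative. The 0 calls for age became 14 with DESeq2, 12 without a filter, 3 at an adjusted p under 0.05, and 0 to 20 with 1 library left out. Of the 10 genes, *Lama2* was called for age without Lyve-1+ replicate 2, so that count ran from 0 to 1, and its adjusted p for age was 0.0223 without a filter on low counts. For the difference of the population effect between ages, DESeq2 called 5 genes. The number of the 10 genes without overlap between populations was 4, beside 7.82% of all genes separated with Lyve-1+ higher. It was 3 under both other scalings and 4 to 7 with 1 library left out, an omission that at a fixed scaling cannot lower it. Beside the 7, without Lyve-1- replicate 2, the share of all genes was 12.2%. That share was not read for the other settings. With 3 pools a population and a common biological coefficient of variation of 0.931, the errors are wide.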
